A study of Homo sapiens with 2 samples.

Results

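The respiratory chain assembly factors are nuclear-encoded proteins that build complexes I to V of the inner mitochondrial membrane without staying in the finished complexes. The 45 genes described here were chosen by name: 14 factors of complex I, 4 of complex II, 6 of complex III, 18 of complex IV and 3 of complex V. All 45 were found under these symbols among 22458 named probe sets, of 23786 in all, with 1 probe set for each gene. The samples were cultures of HCT116, an established line of human colon carcinoma cells. One culture received LXR623, a compound that activates the liver X receptors, at 20 µM, and the control received the solvent, 0.1% DMSO. Total RNA was taken after 24 h in medium with reduced serum and hybridized to Affymetrix expression arrays. The sample labels name RPMI as the medium, whereas the methods of the study name DMEM for these cells. The study asked how LXR agonists act on mitochondrial respiration, and the comparison here is of the transcripts of the assembly machinery with and without LXR623.

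The respiratory chain passes electrons from NADH and succinate to oxygen and pumps protons that drive ATP synthesis at complex V. Apart from complex II, its complexes mix subunits made in the cytosol with subunits encoded by mitochondrial DNA. The chain carries flavin, iron-sulfur clusters, heme and copper. Assembly factors modify single subunits, insert these cofactors and hold intermediates until the next module is added. Inherited loss of many of them causes mitochondrial disease.

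With 1 array for LXR623 and 1 for DMSO, the differences stand without replicates, error or test. Values are log2 signals, and each difference is the LXR623 value minus the DMSO value on the log2 scale. Signals of different probe sets do not rank transcripts against each other. A probe set counted as past the filter when the mean of both arrays reached the median of the table, 4.42, which held for 11899 probe sets and for 43 of the 45 factors. The median difference of the probe sets past the filter was -0.02. LXR target genes served as a check of the treatment: all 10 listed had a difference above 0, from 0.21 to 1.56, the latter for ABCA1, which was dim. Of the 6 past the filter 2 were at least 1.5-fold higher, SREBF1 with 0.91 and LPCAT3 with 0.73. Among markers of colon epithelium, 6 of 12 passed the filter, EPCAM, CDH1, KRT8, KRT18, KRT19 and CDX2, whereas VIL1 and CDH17 were dim in both arrays. KRT8, a keratin of simple epithelia, had 5.63 with DMSO and 7.14 with LXR623, a difference of 1.50 that exceeds that of any assembly factor, and its part in the results was not tested. Of 10 fibroblast and stromal markers, COL1A1 alone passed the filter, and of 10 immune and endothelial markers CD68 alone did.

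As a group, the assembly factors differed little in their median, with more of them below 0 than above. Their median difference was -0.08, and 28 of the 45 had a difference below 0, or 62.2%, against 47.7% of all probe sets. All 28 were among the 43 past the filter, where the background was 52%. Among the 43 factors past the filter, 2 were at least 1.5-fold higher in the LXR623 array, TTC19 and SURF1, where 5.84% of all probe sets past the filter were. At least 1.5-fold lower was 1 factor, TMEM70, where 5.41% of all probe sets past the filter were. These counts are no larger than the background gives. In bulk RNA, less transcript per cell and fewer cells that carry it cannot be told apart, nor can the compound and any other difference between the cultures. Of the 43 factors past the filter, 0 reached 2-fold in either direction, against 1.15% higher and 0.63% lower in the background. With dim factors included, 3 of the 45 were 1.5-fold higher and 1 lower, against 5.22% and 4.76% of all probe sets. At a lower threshold, a log2 difference of 0.32 in size, 3 of the 43 factors past the filter were higher and 11 lower. The background was 17.4% higher and 18.9% lower, and this lean to lower values was not tested. The individual differences ran from -0.69 for TMEM70 to 1.06 for SDHAF4, which did not pass the filter. By signal, the members ran from SDHAF4, with a mean of 3.94, to TIMMDC1, a membrane-arm factor of complex I, with 9.44.

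**Figure D1:**
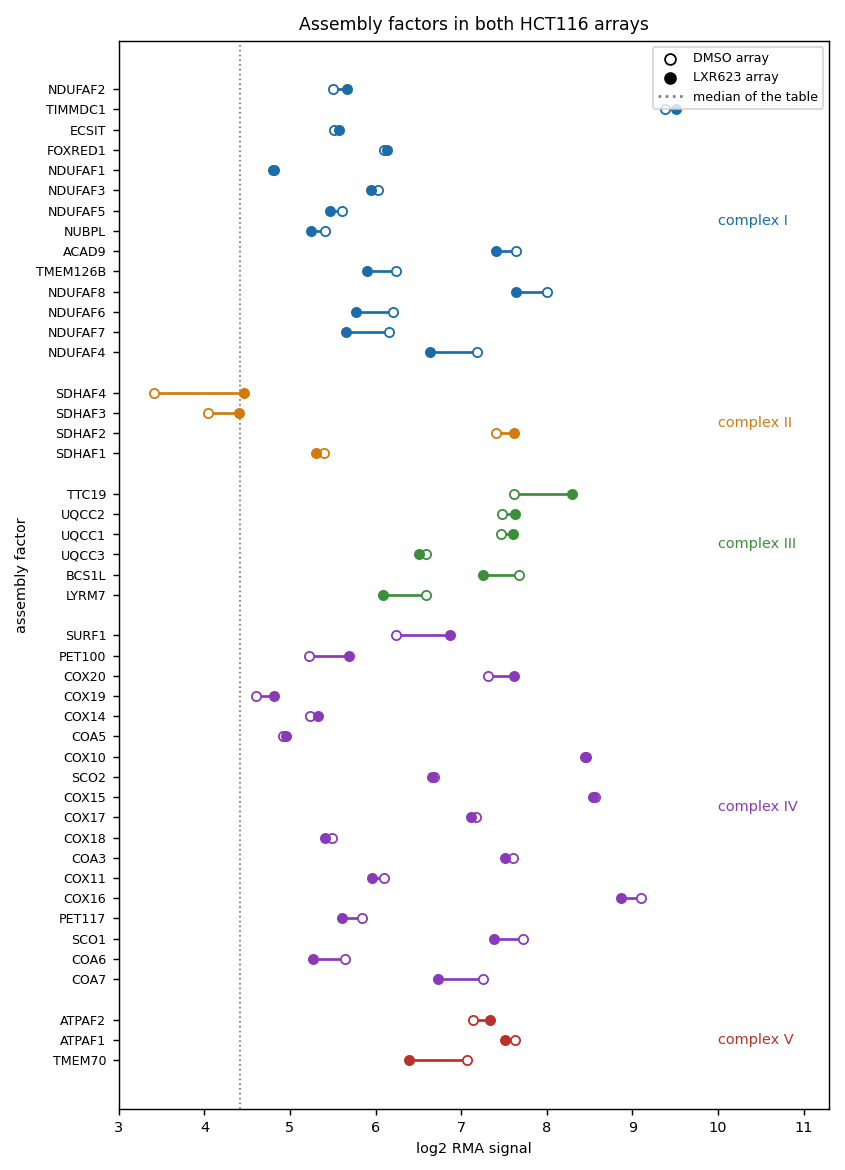
Log2 RMA signal (x axis) of each of the 45 assembly factors (y axis) in the DMSO array (open circles) and the LXR623 array (filled circles), grouped by complex and ordered by difference within each group; the dotted line is the median of the table, 4.42. Most pairs of circles lie close together, and the widest gap belongs to SDHAF4, from 3.41 to 4.47.

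**Figure D2:**
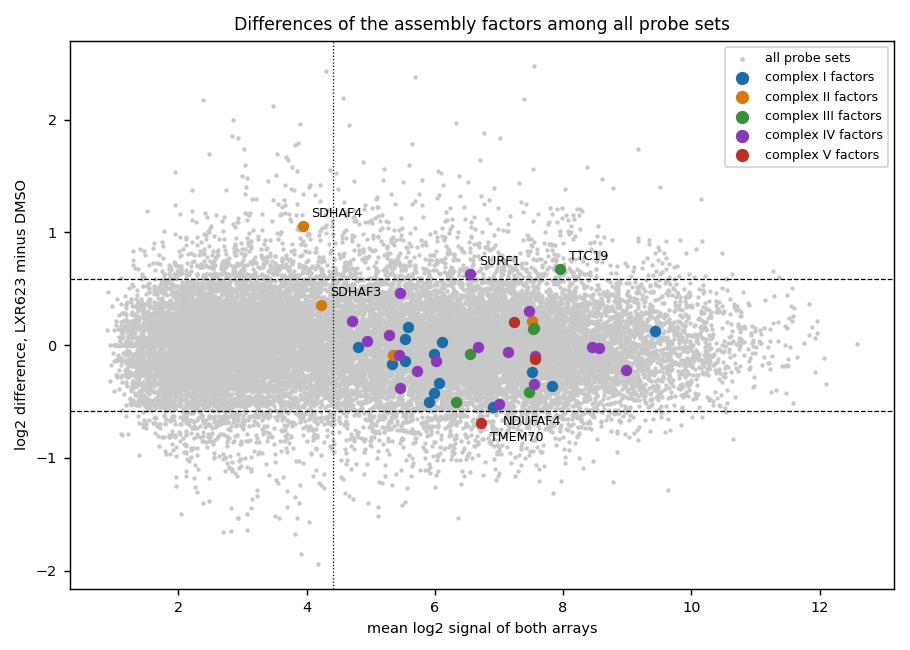
Log2 difference, LXR623 minus DMSO (y axis), against the mean log2 signal of both arrays (x axis) for all 23786 probe sets (grey) and the 45 assembly factors (colored by complex); dashed lines mark 1.5-fold and the dotted line the median of the table. The factors sit inside the grey cloud, with TTC19, SURF1 and SDHAF4 above the upper dashed line and TMEM70 under the lower one.

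The factors of complex I leaned to lower values. NDUFAF4, which binds the early intermediate of the Q module where electrons reach ubiquinone, had 7.19 with DMSO and 6.64 with LXR623, a difference of -0.55. NDUFAF7, a methyltransferase of early assembly, had 6.16 and 5.65, a difference of -0.51. NDUFAF6, another early factor, had 6.20 and 5.77, a difference of -0.43. These were the lowest differences among the 14 factors, and each is smaller than 1.5-fold. The median of the 14 was -0.15, and 10 were below 0, where 52% of all probe sets past the filter were. At the threshold of 0.32, 5 of the 14 were lower and 0 higher, against 18.9% and 17.4% of all probe sets past the filter.

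When the complex I factors were split by the step in which they act, a grouping written after their values were seen, most of the lower values were in 1 step. All 6 factors of the early Q module were below 0, with a median of -0.39, and 4 of them were lower by at least 0.32, against the same background of 52% and 18.9%. A grouping made in this way supports nothing by its count. Beside the 3 already given, this group holds NDUFAF8, a partner of NDUFAF5, with -0.36, NDUFAF5, which hydroxylates the core subunit NDUFS7, with -0.14, and NDUFAF3, which pairs with NDUFAF4, with -0.08. The subunit NDUFS7 itself had 6.38 and 6.13, a difference of -0.26. The 5 factors of the membrane arm, most of which form the MCIA complex, had a median of -0.02. Among these TMEM126B, an integral membrane member, had 6.23 with DMSO and 5.90 with LXR623, a difference of -0.33, and ACAD9, a relative of acyl-CoA dehydrogenases, differed by -0.23. ECSIT and NDUFAF1 of the same complex differed by 0.06 and -0.02. TIMMDC1 had 9.38 and 9.50, a difference of 0.12. The largest positive difference in complex I was that of NDUFAF2, a paralogue of the subunit NDUFA12 that acts late in assembly, with 5.50 and 5.67, a difference of 0.16. FOXRED1, a flavoprotein of mid to late assembly, differed by 0.03 and NUBPL, which delivers iron-sulfur clusters, by -0.17. No test of the gap between the steps is possible with these arrays.

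The NDUFAF7 gene starts 62 bases from the start of CEBPZ, a gene on the opposite strand that was lower as well. The bases between both starts are shown because both genes of this pair had nearly the same difference. NDUFAF4 is shown as the factor of complex I with the lowest difference. Capitals mark CCGGAAG, the core bound by ETS factors such as GABP, a known regulator of respiratory genes. The NDUFAF7 stretch holds none of the motifs searched. A match to ATGGCGG, the core of the YY1 motif, lies 92 bases before an annotated start of NDUFAF7, outside the stretch.
NDUFAF7, bases between the starts (GRCh38.p14, chr2:37231597-37231657, + strand): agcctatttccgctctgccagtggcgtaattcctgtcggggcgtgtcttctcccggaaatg
NDUFAF4, 150 bases before the start (GRCh38.p14, chr6:96897892-96898041, - strand): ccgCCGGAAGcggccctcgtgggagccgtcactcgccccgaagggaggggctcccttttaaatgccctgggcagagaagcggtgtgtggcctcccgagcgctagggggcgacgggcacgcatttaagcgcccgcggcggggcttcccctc

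The 4 factors of complex II, succinate dehydrogenase, had the highest group median, and it rested on dim probe sets. SDHAF4, which binds the flavin-carrying subunit SDHA and passes it on for assembly, had 3.41 with DMSO and 4.47 with LXR623, a difference of 1.06 or 2.08-fold. Its mean signal lay under the filter. Among the 1189 probe sets in its bin of mean signal, 1 of 20 bins over the table, the share at least 1.5-fold higher was 7.57% and that at least 2-fold higher 2.35%. SDHAF3, an LYR-motif protein that protects the iron-sulfur subunit SDHB, was dim too, with 4.04 and 4.40, a difference of 0.36. SDHAF2, which helps to attach flavin to SDHA, had 7.40 and 7.62, a difference of 0.21. SDHAF1, which brings iron-sulfur clusters to SDHB, had 5.39 and 5.31, a difference of -0.09. The median of all 4 was 0.29, and that of SDHAF1 and SDHAF2, which passed the filter, was 0.064. SDHA and SDHB were not analysed here, and the other 2 subunits, SDHC and SDHD, differed by -0.09 and -0.07.

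Among the 6 factors of complex III, those that handle the Rieske iron-sulfur protein differed most, in both directions. TTC19, which clears fragments of the Rieske protein after its insertion, had 7.62 with DMSO and 8.30 with LXR623, a difference of 0.68 or 1.60-fold. LYRM7, which holds the Rieske protein in the matrix, had 6.59 and 6.08, a difference of -0.50. BCS1L, the AAA ATPase that moves the folded Rieske protein across the inner membrane, had 7.68 and 7.26, a difference of -0.42. LYRM7 and BCS1L, which act up to the insertion, were lower, and TTC19, which acts after it, was higher, each without replicates. Of all probe sets past the filter, 36.3% differed by at least 0.32 in either direction. A split of so few genes by their step supports nothing, and it was not tested. The Rieske gene UQCRFS1 itself was not analysed here. The factors of cytochrome b stayed closer to 0. UQCC1 had 7.46 and 7.60, a difference of 0.14. UQCC2, its partner at the mitochondrial ribosome, had 7.48 and 7.63, a difference of 0.15. UQCC3, which joins at a later intermediate, had 6.59 and 6.51, a difference of -0.08. The median of the 6 was 0.03.

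BCS1L and TTC19 also start close to a gene on the opposite strand, and these 2 pairs behaved differently. ZNF142, 60 bases from the start of BCS1L, had 7.83 with DMSO and 7.31 with LXR623, a difference of -0.52. ZSWIM7, 120 bases from the start of TTC19, had 5.78 and 5.55, a difference of -0.23, opposite to TTC19. The bases between the starts are shown so that both stretches can be compared. Capitals mark CCAAT, the letters bound by NF-Y. A match to CCAAT also lies at -206 relative to an annotated start of BCS1L, outside the stretch printed. The motif therefore does not set the 2 genes apart.
BCS1L, bases between the starts (GRCh38.p14, chr2:218659624-218659682, + strand): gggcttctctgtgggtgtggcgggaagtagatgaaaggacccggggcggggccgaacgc
TTC19, bases between the starts (GRCh38.p14, chr17:15999705-15999823, + strand): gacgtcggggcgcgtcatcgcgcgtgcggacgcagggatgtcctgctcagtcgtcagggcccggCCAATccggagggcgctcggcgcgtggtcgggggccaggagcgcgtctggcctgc

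The 18 factors of complex IV, cytochrome c oxidase, had a median of -0.04. Of these, 12 were below 0, against 52% of all probe sets past the filter. SURF1, which takes part in the insertion of heme A into COX1, had 6.24 with DMSO and 6.87 with LXR623, a difference of 0.63 or 1.55-fold, and was the only member of this group past 1.5-fold. PET100, a factor of later intermediates, had 5.23 and 5.69, a difference of 0.46. COX20, which stabilizes newly made COX2, had 7.31 and 7.62, a difference of 0.30. At the other end COA7, a cysteine-rich factor of the intermembrane space, had 7.26 and 6.73, a difference of -0.53. COA6, which works with the SCO proteins on copper delivery, had 5.64 and 5.26, a difference of -0.38. SCO1, a copper chaperone of COX2, had 7.72 and 7.38, a difference of -0.34.

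By the cofactor they serve, again a grouping written after the values were seen, the complex IV factors showed small differences. Of 7 copper factors 6 were below 0, against 52% of all probe sets past the filter, with a median of -0.14. As for complex I, a count in such a grouping supports nothing. COX17, which hands copper to SCO1 and COX11, differed by -0.06, SCO2, the second SCO protein, by -0.02, COX11, which serves the copper site of COX1, by -0.14, and COX16, which assists the metallation of COX2, by -0.22. COX19, a soluble partner of COX11, was the exception with 0.21. The enzymes that make heme A barely differed: COX10, which makes heme O, and COX15, which turns it into heme A, had -0.02 each, so that SURF1 stood apart from both. Among the other 8 factors, which act on newly made core subunits or at later steps, the median was -0.02. COX14 and COA3, early partners of COX1, differed by 0.09 and -0.10, COX18, which inserts COX2 into the membrane, by -0.08, COA5 by 0.04 and PET117 by -0.23.

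Of the factors of complex V, the ATP synthase, TMEM70 had the lowest difference of all 45 members. TMEM70, which supports the ring of c subunits, had 7.07 with DMSO and 6.38 with LXR623, a difference of -0.69, which is 1.61-fold lower. The c subunits themselves come from 3 genes, of which ATP5MC3 was lower by -0.37, whereas ATP5MC1 and ATP5MC2 differed by 0.03 and 0.23. ATPAF1, a chaperone of the F1 β subunit, had 7.63 and 7.51, a difference of -0.13, close to the -0.12 of the β subunit gene ATP5F1B. ATPAF2, the chaperone of the α subunit, had 7.13 and 7.34, a difference of 0.21, beside -0.11 for the α subunit gene ATP5F1A. The median of the 3 factors was -0.13.

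By the median size of the difference, all subunits together stayed closer to 0 than the assembly factors, with 0.15 against 0.21. In complex I both were nearly level, with 0.162 for the subunits and 0.166 for the factors. Of 80 nuclear-encoded subunits listed, 71 were analysed and 69 passed the filter, and 0 of these 69 reached 1.5-fold. The list also counts ATP5IF1, an inhibitor of complex V, and COX7A2L, which links complexes to each other, with 0.14 and 0.24. Past the threshold of 0.32 in either direction were 7 of the 69 subunits, or 10.1%, and 14 of the 43 factors, or 32.6%, where the background of all probe sets past the filter was 36.3%. The factors thus lay near the background and the subunits below it. The median of the factors was -0.15 against -0.06 for the subunits in complex I, 0.03 against -0.11 in complex III, -0.04 against 0.04 in complex IV and -0.13 against -0.12 in complex V. In complex II it was 0.29, or 0.064 for the factors past the filter, against -0.08 for the only 2 subunits analysed. The subunit with the largest difference in each complex was NDUFB10 with -0.39, SDHC with -0.09, UQCRQ with -0.22, COX7C with 0.54 and ATP5MC3 with -0.37. Subunit probe sets were brighter, with a median signal of 7.84 against 6.55 for the factors, and over all probe sets past the filter the SD of the differences was 0.41 below and 0.36 above a signal of 7. With this split, chosen after seeing the data, 10 of 26 dimmer factors but 0 of 19 dimmer subunits were past 0.32, against a background of 39.1%. Among the brighter ones it was 4 of 17 factors and 7 of 50 subunits, against a background of 33%. The gap was not tested.

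**Figure D3:**
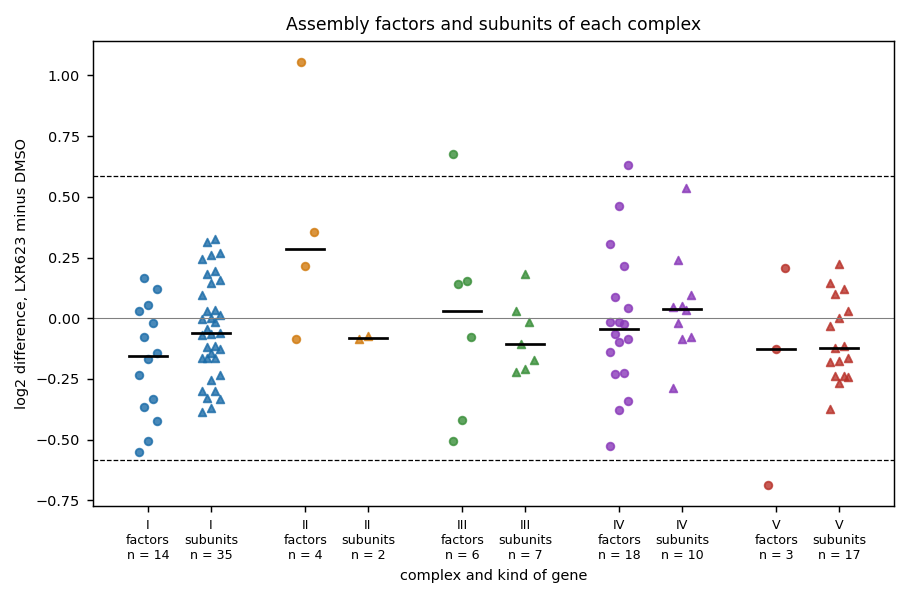
Log2 difference, LXR623 minus DMSO (y axis), of assembly factors (circles) and nuclear-encoded subunits (triangles) of complexes I to V (x axis), each symbol 1 gene, with black bars at the medians and dashed lines at 1.5-fold. Every triangle lies between the dashed lines, while 4 circles, SDHAF4, TTC19, SURF1 and TMEM70, lie outside them.

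Other genes that serve the assembly of the chain were counted by lists written from textbook knowledge, against the background past the filter of 5.84% at least 1.5-fold higher, 5.41% at least 1.5-fold lower and 52% below 0. Of 18 further assembly factors past the filter, 1 was at least 1.5-fold lower, TMEM177, which assists COX20, with -0.60, and 0 were higher, with a median of -0.03 over the 19 found. Among 15 genes of iron-sulfur cluster biogenesis, BOLA3, a late cluster factor, was the only one past 1.5-fold, with -0.79, and the median over 16 was -0.11. The 8 genes of heme synthesis had a median of 0.20, and 0 passed 1.5-fold. The 8 genes listed for copper supply and for import of cysteine-rich and other proteins were all below 0. Their median was -0.28, with 0 past 1.5-fold. MTX1, with -0.53, was dim, and the 7 past the filter had a median of -0.27. GFER was counted in the iron-sulfur list as well, and HSPA9 in both the iron-sulfur list and the inner membrane import list. CHCHD4, the import receptor that oxidizes COX17, COA7 and similar proteins, had 5.08 and 4.75, a difference of -0.33, and GFER, its oxidase, -0.29. The inner membrane import machinery, with a median of -0.16 over 18 genes, had 5 genes past 1.5-fold on the lower side and 1 on the higher. TIMM22 and TIMM21, a carrier translocase and a translocase subunit that also meets assembly intermediates, had -0.72 each, and TIMM13, a small chaperone of the intermembrane space, -0.70. The mitochondrial ribosomal proteins had a median of -0.26 over 80 genes, 71 of them below 0, against -0.08 for the assembly factors.

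Since several assembly factors share a promoter region with another gene, the members were set beside their neighbours. RefSeq promoter windows, from 250 bases before to 50 after each start, matched 39 of the 45 members with 54 windows. Of these members, 16 start within 1000 bases of a gene on the opposite strand that points away and has a probe set, and 12 of these neighbours passed the filter. In 8 of the 12 pairs both genes differed in the same direction, 5 times lower and 3 times higher, and in 4 pairs in opposite directions. With 52% of all probe sets past the filter below 0, unrelated genes often share a direction. The shares over all divergent pairs were not computed, so the counts of pairs here support nothing. Lower by at least 0.32 on both sides were 2 pairs, NDUFAF7 with CEBPZ and BCS1L with ZNF142. The annotated spans of BCS1L and ZNF142 overlap, as do those of NDUFAF3 and its neighbour DALRD3, and how far their probe sets are specific was not tested. CEBPZ, a nuclear protein of ribosome formation, had 7.48 with DMSO and 7.05 with LXR623, a difference of -0.42 beside -0.51 for NDUFAF7. In other pairs only 1 gene moved by this size: CUTC had 7.79 and 7.20, a difference of -0.59, beside -0.02 for COX15. SDHAF2, with 0.21, and its neighbour CPSF7, with -0.31, went apart. The points share 1 pair of arrays, so they are no independent replicates.

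**Figure D4:**
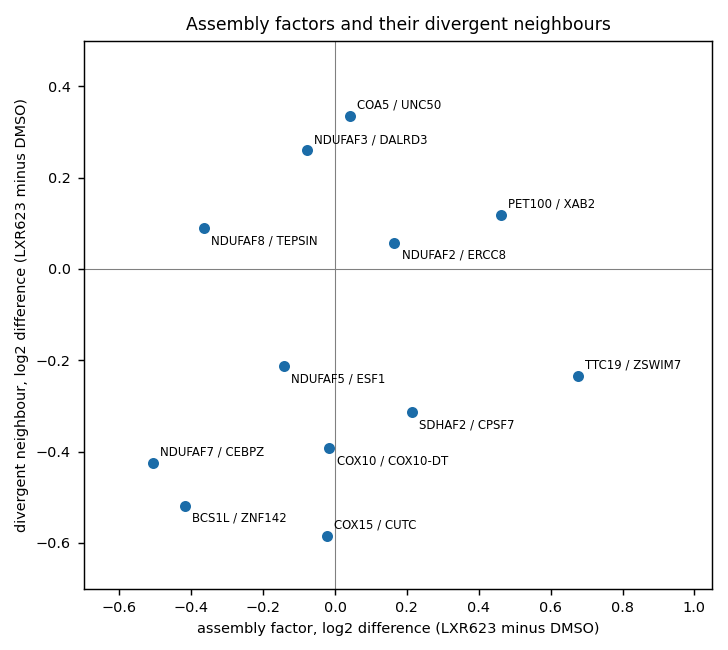
Log2 difference, LXR623 minus DMSO, of 12 assembly factors (x axis) and of the gene that starts next to each on the opposite strand (y axis), for neighbours past the filter; each point is 1 pair. NDUFAF7 with CEBPZ and BCS1L with ZNF142 lie together at the lower left, whereas TTC19 with ZSWIM7 lies at the lower right.

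Short motifs were counted in the same windows on both strands. CCGGAAG was in 16 of 54 member windows, or 29.6%, and in 12.8% of the windows of all protein-coding genes. GCATGCGC, the core of the NRF1 motif, was in 7 windows, or 13.0%, against 3.74%, and ATGGCGG, the core of the YY1 motif, in 12, or 22.2%, against 6.99%. CCAAT was in 37.0% against 34.7%. Over all windows of the table, with non-coding genes, the shares were 10.3%, 3.05%, 5.55% and 34.6% in the same order. The members with these motifs lay on both sides of 0. Below 0 were 7 of the 14 genes with CCGGAAG and 4 of the 6 with GCATGCGC. For ATGGCGG it was 4 of 9 and for CCAAT 10 of 17, against 52% of all probe sets past the filter. TGATGNAA, a motif of C/EBP and ATF dimers, was in 1 member window, against 2.69% of coding windows. The direct repeat (DR4) motif of LXR and the sterol response motif were in 0. Their shares were 0.0090% and 0.12% of coding windows, and 0.020% and 0.15% of all windows. Strings this rare are hardly to be met in 54 windows, so the 0 says nothing about such sites. None of these motifs contains another. Windows of 1 gene overlap in part, and a match is a description of letters, not of binding.

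Some members overlap other genes or have copies, which limits their probe sets. BCS1L, with -0.42, overlaps ZNF142, with -0.52. NDUFAF6 overlaps CCNE2, with a difference of -1.13, and TP53INP1, with 1.09, NDUFAF7 overlaps PRKD3, with -1.07, and PET100 overlaps STXBP2, with 0.39. SCO2 and TYMP, which overlap, differed by -0.02 and 0.06. Pseudogenes carry the names of 9 members, among them 4 of NDUFAF4 and 2 each of NDUFAF2 and COX20. How far the probes of these sets are specific was not tested.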

How the data were processed

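The authors deposited log2 intensities from RMA, which corrects background, normalizes between arrays and summarizes probes. Per the submitters' processing notes, affy 1.36.1 was run in R 2.15.1. The array design was not given in the sources used here. The largest gap between the sorted values of the DMSO and LXR623 arrays was 0.21. Probe sets were named through the annotation table of the platform, in which 1328 probe sets are unnamed here. Sequences and neighbours came from RefSeq tables (GRCh38.p14). No test was run on 1 array against 1. The number of arrays limits the precision.

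Counts used thresholds of 1.5-fold and of a log2 difference of 0.32 after a filter on the mean of both arrays. Members and lists were chosen with earlier results of these data known. Values are given for members past 1.5-fold, for the 3 highest and 3 lowest in complexes I and IV, and for all of complexes II, III and V; the other members and the genes beside the lists were added after their values were seen. Python 3.11.15, numpy 2.4.6, pandas 2.3.3, statsmodels 0.14.6 and matplotlib 3.10.9 were used, and the steps were tested on simulated data. Alternatives were no filter, a filter on the higher value, thresholds of 0.32 (log2) and 2-fold, the mean, centring on the median, removal of a lowess trend with a fraction of 0.3 and quantile normalization.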

Additional observations from a re-analysis of the deposited data

How the results depend on the processing

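No paired analysis was possible because each condition has a single array. The counts depend on the threshold. At 2-fold 0 assembly factors past the filter were higher and 0 lower, against 1.15% and 0.63% of all probe sets past the filter. At a log2 difference of 0.32, 3 were higher and 11 lower, against 17.4% and 18.9%. Without a filter 3 were at least 1.5-fold higher, since SDHAF4 then counts. The median of the complex II factors was 0.064 for the members past the filter, against 0.29 for all 4, since SDHAF3 and SDHAF4 drop out. The other medians moved by less than 0.1 under each alternative run, though that of the complex III factors, 0.03, was -0.01 as a mean. After lowess or quantile normalization 0 members changed their side of 1.5-fold, and the largest shift was 0.05. Dim signals limit SDHAF4 and SDHAF3 most.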
